A study of Homo sapiens with 4 samples.

Results

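The plasminogen activation and surface clotting genes described here are PLAU, PLAUR, PLAT, SERPINE2, SERPINB2, F3, THBD and PROCR, 8 rows chosen by gene name from the 58735 genes of the count table. The libraries come from the ovarian cancer line Hey-A8, 2 with a control short hairpin RNA (shCON, the negative control) and 2 with a hairpin labelled as knocking down SPTLC2 (shSPTLC2). SPTLC2 is part of serine palmitoyltransferase, the enzyme that opens sphingolipid synthesis. The design text calls the knockdown stable. The protocol on treatment instead names ZDHHC15 as the hairpin target, with transient transfection and harvest at 36 h, so the labels disagree on target and delivery. No drug or stimulus is named, and both groups grew in the same serum-containing medium. The labels do not say whether the replicates are separate cultures, so p-values measure the spread between these libraries, which may be technical.

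Plasminogen is a secreted proenzyme that is cut to plasmin, a protease that dissolves fibrin and matrix. Urokinase and tissue plasminogen activator make that cut, the urokinase receptor holds urokinase on the cell surface, and serpins inhibit both activators. Tissue factor starts clotting on the same surfaces, while thrombomodulin turns thrombin towards activating protein C, a step that the endothelial protein C receptor aids. Carcinoma cells often express the urokinase system, and tissue factor on tumour cells is a known link between cancer and thrombosis.

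Pairs of values below are given in the order replicate 1, replicate 2. SPTLC2, the target named in the sample titles, was at 871 and 884 counts in shCON against 587 and 662 in shSPTLC2. On the log2 scale shSPTLC2 differed from shCON by -0.52 ± 0.12 (SE) for SPTLC2, with an adjusted p of 0.0063 in edgeR (quasi-likelihood F, Benjamini-Hochberg over the tested genes). The call ended without either shSPTLC2 library (adjusted p = 0.134 and 0.052, with 4.2e-04 to 0.134 over the 13 alternatives). For ZDHHC15 each of the 4 libraries showed 0 counts, a result that allows 0.195 to 0.206 CPM, the count scaled to library size with TMM factors. Genes of the mitochondrial genome took 5.46% and 6.39% of counts in shCON and 10.1% and 8.56% in shSPTLC2. With the rows of those genes left out before scaling, the log2 fold changes were -0.95 for PLAU, -0.80 for THBD and 0.66 for PROCR. That setting changes only the scaling and fit of the other genes, so the part of the mitochondrial share in the results was not tested. Of 8 epithelial markers, KRT8, KRT18 and PAX8 were abundant, whereas CDH1 was at 0 counts, MUC16 at 0 to 1, EPCAM at 3 to 10 and KRT19 at 18 to 23. PAX8 was called higher in shSPTLC2 (log2 fold change 0.73), also in all 13 alternatives. MSLN was called higher (0.61, edgeR adjusted p = 0.016) but in 9 of 13 alternatives, and with the GC-content correction its adjusted p was 0.155 (0.0047 to 0.155 over the alternatives). Of 4 mesenchymal markers 0 were called, and VIM was the most abundant of them. Of the calls over all genes 53.6% were higher, against 65.1% with library totals as the scaling, 49.1% with DESeq2 and 47.7% with the GC-content correction, so the majority direction depends on the setting.

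All 8 genes passed the filter on low counts, and at an adjusted p under 0.05 the test called 4 lower (PLAU, SERPINB2, THBD and PLAT) and 1 higher (PROCR) in shSPTLC2. Across all 15313 tested genes, 19.4% were called, 9.00% lower and 10.4% higher. In RNA from whole cultures, fewer cells that express a gene and less RNA per cell cannot be told apart. PLAUR, SERPINE2 and F3 were not called. Their log2 fold changes were below 0, as were those of the 4 genes called lower. The median log2 fold change of the 8 genes was -0.44, against 0.005 over all tested genes. The 8 genes were chosen with earlier results of these data known, so comparisons of their calls and median with all genes are descriptive only. In each of the 8 genes the shCON and shSPTLC2 libraries did not overlap in CPM, which was so for 61.5% of tested genes. Without shSPTLC2 replicate 1 the median log2 fold change of the 8 genes was -0.46, and without shSPTLC2 replicate 2 it was -0.45. Both fits called fewer genes, among these 8 and over all tested genes.

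**Figure D1:**
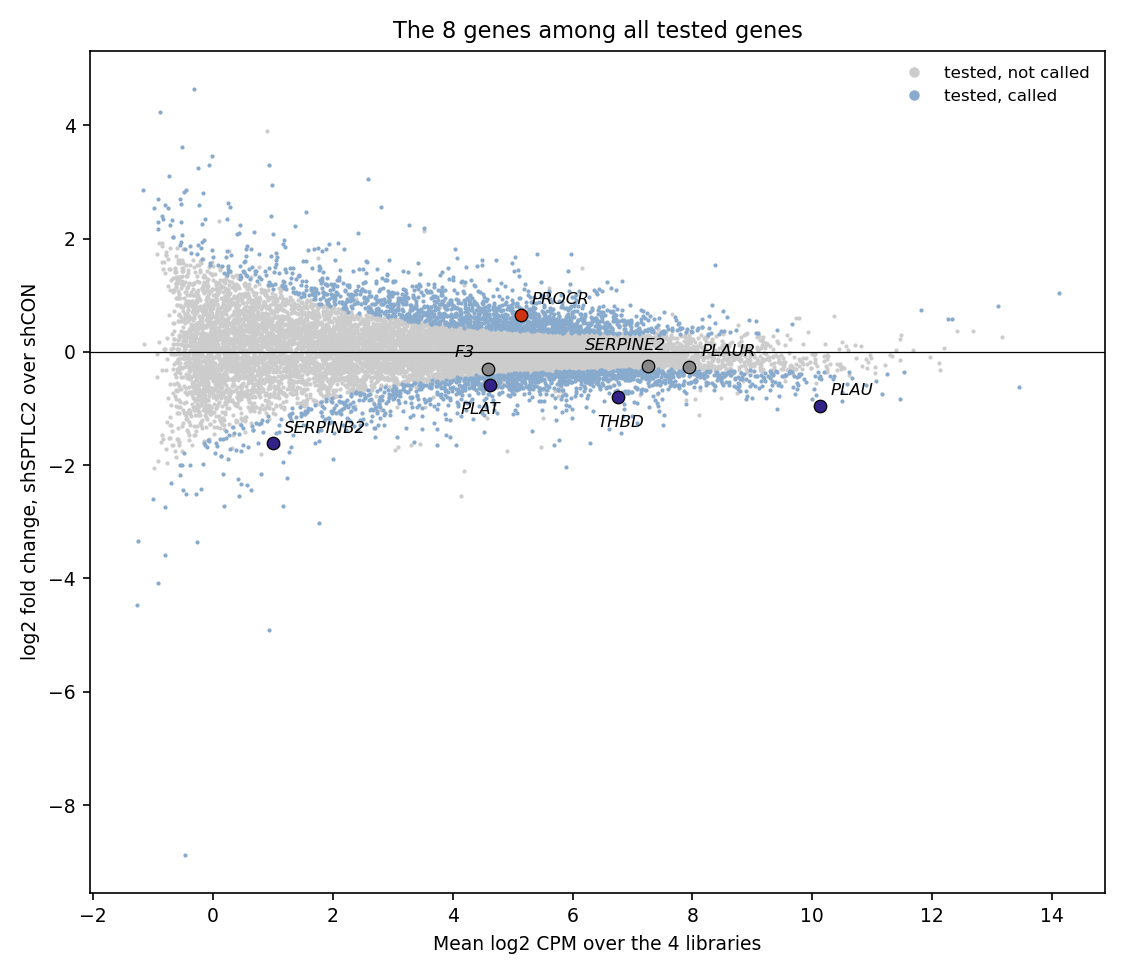
Log2 fold change, shSPTLC2 over shCON, against mean log2 CPM over the 4 libraries. Each small point is 1 of the 15313 tested genes (blue where called, grey where not), and the 8 larger points are the named genes, dark blue where called lower, red where called higher and grey where not called. PLAU lies at the abundant end at -0.95 and SERPINB2 at the low end at -1.61.

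Promoter sequence was available for 6 of the 8 genes (PLAU, PLAUR, SERPINE2, SERPINB2, F3 and PROCR), from RefSeq on GRCh38.p14. The 250 bases before each annotated start were searched on both strands for the AP-1 site TGANTCA, the SP1 site GGGCGG, the TATA element TATAAA and the box CCAAT. AP-1 is a factor long tied to urokinase system and tissue factor promoters, so its matches are shown, with 2 of the 3 SP1 matches of PLAU, the most abundant of the 8 genes (the match from -40 is not shown). The stretches below run 5′ to 3′ on the gene's strand, and capitals mark matches to AP-1 (F3, PLAUR, SERPINB2), to TATAAA (SERPINB2) and to SP1 (PLAU). They lie at chr18:63887455-63887699 (plus strand) for SERPINB2, chr1:94541953-94541993 (minus strand) for F3, chr19:43670338-43670366 (minus strand) for PLAUR and chr10:73911062-73911090 (plus strand) for PLAU.
SERPINB2: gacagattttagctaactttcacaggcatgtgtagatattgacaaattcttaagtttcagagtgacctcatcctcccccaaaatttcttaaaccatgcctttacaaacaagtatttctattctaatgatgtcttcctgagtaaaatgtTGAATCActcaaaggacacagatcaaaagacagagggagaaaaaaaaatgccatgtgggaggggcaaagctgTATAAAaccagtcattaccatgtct
F3: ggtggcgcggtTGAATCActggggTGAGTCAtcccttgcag
PLAUR: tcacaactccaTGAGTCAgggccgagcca
PLAU: agccGGGCGGgagagggagGGGCGGcgcc

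The printed PLAUR and PLAU stretches lie wholly within annotated exons (GENCODE 29, genes of either strand), and those of SERPINB2 and F3 do not touch one. Positions are counted from -1, the base before the annotated start. The F3 window held 2 AP-1 matches, from -223 and -210, PLAUR held 1 from -186 and SERPINB2 held 1 from -102. The windows of PLAU, SERPINE2 and PROCR held 0 AP-1 matches. Bases further upstream were not searched, so this does not show that these genes lack AP-1 sites. Among 34788 windows of the same length, 6.59% held an AP-1 match, 42.6% an SP1 match, 10.8% a TATA match and 11138 windows a CCAAT match. Of the 3 genes with an AP-1 match, SERPINB2 was called lower, and PLAUR and F3 were not called. TATAAA or its reverse complement was found in SERPINB2, F3 and PROCR, whose log2 fold changes were -1.61, -0.31 and 0.66. PLAU has 2 windows, and its 3 SP1 matches lie in the one at chr10:73910882-73911131 (plus strand). The other, at chr10:73910360-73910609, held 0 SP1 matches and 1 CCAAT match. SERPINE2 also has 2 windows, and the one at chr2:224031479-224031728 (minus strand) held 7 CCAAT matches and 1 SP1 match. A match is a description of letters, and which start these cells use was not analysed here.

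PLAU encodes urokinase, the plasminogen activator that acts at cell surfaces (ENSG00000122861, hg38 chromosome 10, 73909177 to 73917497). FPKM is the deposited level per kilobase of the deposited gene length, which for PLAU is 2950 bases and shorter than its span. Orders and ratios of FPKM between genes depend on these lengths. The FPKM of PLAU was 537.3 and 516.8 in shCON against 271.1 and 270.4 in shSPTLC2. Both shSPTLC2 libraries lay near the same level, well below both shCON libraries, and PLAU ranked 63 by mean FPKM among the tested genes. In counts PLAU had 23471 and 22375 in shCON and 11903 and 12341 in shSPTLC2, so counting error is small beside the difference. PLAU fell by 0.95 ± 0.11 on the log2 scale (SE; edgeR adjusted p = 6.5e-05), to 51.7% of the shCON level with a 95% interval of 43.9% to 61.0%. The call held in all 13 alternatives, with log2 fold changes from -0.98 to -0.90. Of the 1378 genes called lower, 229 fell by more than PLAU. The opposite-strand gene C10orf55 overlaps PLAU over 7529 bases from gene start to end, introns included. It had 80 and 83 counts in shCON and 35 and 49 in shSPTLC2. The strand setting of the counting is not given, so reads from any bases where exons of both genes overlap cannot be told apart.

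PLAT encodes tissue plasminogen activator, the fibrin-directed activator (ENSG00000104368, chromosome 8, 42175233 to 42207724). It had 394 and 485 counts in shCON and 282 and 322 in shSPTLC2, or 26.6 and 33.3 CPM against 19.2 and 21.0 CPM. Both shSPTLC2 libraries were lower than both shCON libraries, which differed from each other by more than the shSPTLC2 pair did. PLAT fell by 0.58 ± 0.15 on the log2 scale (SE; edgeR adjusted p = 0.012), to 67.1% of the shCON level with a 95% interval of 54.2% to 83.2%. Leaving out shSPTLC2 replicate 1 (adjusted p = 0.169) or replicate 2 (0.065) ended the call, and over the 13 alternatives the adjusted p ran from 2.5e-05 to 0.169. On the FPKM scale PLAT was far below PLAU, at 4.51 ± 0.688 in shCON and 3.00 ± 0.199 in shSPTLC2 (SD, n = 2). The within-library ratio of PLAU to PLAT FPKM was 133.6 and 103.5 in shCON and 94.7 and 86.0 in shSPTLC2.

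PLAUR encodes the urokinase receptor, a lipid-anchored surface protein (ENSG00000011422, chromosome 19, 43646095 to 43670547). Its FPKM was 63.1 and 57.6 in shCON and 50.6 and 49.4 in shSPTLC2, the second highest level of the 8 genes in both groups. The libraries did not overlap, but the difference was small beside that of PLAU. For PLAUR the log2 difference was -0.26 ± 0.10 (SE), with a 95% interval of -0.48 to -0.04. The 95% intervals of log2 fold changes are not adjusted over the tested genes, so they can exclude 0 without a call. At an edgeR adjusted p of 0.089 PLAUR was not called. It was called in 1 of 13 alternatives, without shCON replicate 2 (-0.33, adjusted p = 0.016, with 0.016 to 0.392 over the alternatives). The FPKM ratio of PLAU, the ligand, to PLAUR, its receptor, was 8.52 and 8.97 in the shCON libraries and 5.36 and 5.48 in the shSPTLC2 libraries. It is a ratio of RNA, not protein, and its size depends on the gene lengths used, 2950 bases for PLAU and 4457 for PLAUR.

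**Figure D2:**
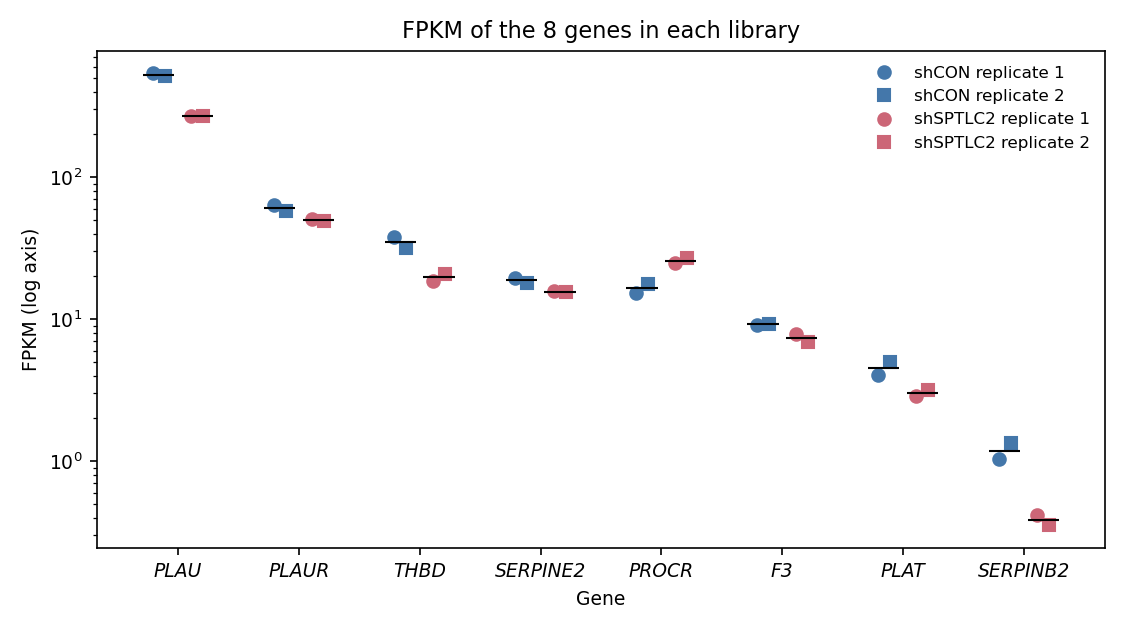
Deposited FPKM (log axis) of the 8 genes in each library, ordered by mean level in shCON. Circles are replicate 1 and squares replicate 2, blue for shCON and red for shSPTLC2, and the black bars are group means (n = 2). PLAU fell from a mean of 527.0 to 270.8, and PROCR and THBD exchanged order.

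SERPINB2 encodes plasminogen activator inhibitor type 2, a serpin that inhibits urokinase and is largely kept inside cells (ENSG00000197632, chromosome 18, 63871692 to 63903890). It had 42 and 54 counts in shCON and 17 and 15 counts in shSPTLC2. Exact Poisson 95% intervals, which cover counting error only, were 30.3 to 56.8 and 40.6 to 70.5 in shCON and 9.90 to 27.2 and 8.40 to 24.7 in shSPTLC2. The intervals of the 2 groups did not meet, though each rests on few reads. SERPINB2 had the largest change of the 8 genes, a log2 fold change of -1.61 ± 0.36 (SE; edgeR adjusted p = 0.0065), which is 32.8% of the shCON level with a 95% interval of 19.2% to 56.0%. Leaving out either shSPTLC2 library ended the call (adjusted p = 0.062 and 0.067), against 6.1e-04 to 0.067 over the alternatives. At 1.19 ± 0.217 FPKM in shCON and 0.384 ± 0.0444 in shSPTLC2 (SD, n = 2), it was the lowest of the 8 genes in both groups.

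SERPINB2 lies in a cluster of SERPINB genes on chromosome 18, which was looked at after its values were seen. Of 10 SERPINB genes there, 6 had 0 counts in all libraries. SERPINB7, the nearest tested coding gene on the lower-coordinate side, had 163 and 143 counts in shCON and 74 and 70 in shSPTLC2 (log2 fold change -1.12 ± 0.21 (SE), adjusted p = 0.0021 in edgeR). SERPINB8, the nearest on the other side and an intracellular serine protease inhibitor, had 394 and 454 counts against 284 and 270 (-0.65 ± 0.14, adjusted p = 0.0055 in edgeR, 1.8e-05 to 0.084 over the alternatives, not called without either shSPTLC2 library). SERPINB5, which encodes maspin, had 62 and 63 counts against 36 and 41 (-0.73 ± 0.28, adjusted p = 0.079 in edgeR). All 4 cluster genes with reads, SERPINB2 included, thus had log2 fold changes below 0, and 3 of the 4 were called. SERPINB7 and SERPINB5 were not followed under the alternatives. Around all 8 genes, the nearest tested coding gene on each side gave 16 neighbours, SERPINB7 and SERPINB8 among them. Of these 2 were called higher, 3 lower and 11 were not called, with log2 fold changes of -1.12 to 0.87. Over all tested genes, 10.4% were called higher and 9.00% lower. Neither neighbour of PLAU was called (CAMK2G, 0.06 ± 0.12, and VCL, 0.03 ± 0.11). The neighbour called lower outside the SERPINB cluster was SMG9, next to PLAUR (-0.52 ± 0.13).

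SERPINE2 encodes protease nexin-1, a secreted serpin that inhibits thrombin, urokinase and plasmin (ENSG00000135919, chromosome 2, 223975112 to 224039319). Its counts were 2560 and 2343 in shCON and 2068 and 2131 in shSPTLC2, or 172.6 and 160.8 CPM against 140.6 and 138.8 CPM. The SERPINE2 log2 difference was -0.25 ± 0.10 (SE; edgeR adjusted p = 0.096), with a 95% interval of -0.47 to -0.04, and it was not called. Without shCON replicate 2 it was called (-0.31, adjusted p = 0.029, with 0.029 to 0.370 over the alternatives). SERPINE2 and PLAUR thus differed between groups by close to the same small amount.

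F3 encodes tissue factor, the membrane receptor of factor VII that starts clotting (ENSG00000117525, chromosome 1, 94529225 to 94541800). It had 388 and 392 counts in shCON and 336 and 307 in shSPTLC2, or 26.2 and 26.9 CPM against 22.9 and 20.0 CPM. The shSPTLC2 libraries were the lower pair and differed from each other by more than the shCON pair did. F3 differed by -0.31 ± 0.14 on the log2 scale (SE; edgeR adjusted p = 0.125), with a 95% interval of -0.60 to -0.02. F3 was called in 0 of 13 alternatives, with an adjusted p of 0.103 to 0.516.

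THBD and PROCR encode surface receptors of the protein C pathway, and they differed between groups in opposite directions. THBD encodes thrombomodulin (ENSG00000178726, chromosome 20, 23045633 to 23049741). Its FPKM was 37.8 and 31.5 in shCON and 18.5 and 20.9 in shSPTLC2, with counts of 2299, 1900, 1133 and 1327. Both shSPTLC2 libraries lay well below both shCON libraries. THBD fell by 0.80 ± 0.12 on the log2 scale (SE; edgeR adjusted p = 3.5e-04), to 57.3% of the shCON level with a 95% interval of 48.2% to 68.1%. It was called in all 13 alternatives, at log2 fold changes of -0.93 to -0.68.

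PROCR encodes the endothelial protein C receptor, which presents protein C to the thrombin-thrombomodulin complex (ENSG00000101000, chromosome 20, 35172073 to 35216240). Its FPKM was 15.2 and 17.7 in shCON and 24.7 and 26.9 in shSPTLC2, with counts of 382, 440, 624 and 705. Among the 8 genes PROCR was the 1 gene that was higher in both shSPTLC2 libraries. PROCR rose by 0.66 ± 0.13 on the log2 scale (SE; edgeR adjusted p = 0.0030), a 1.58-fold rise with a 95% interval of 1.30 to 1.91. Leaving out shSPTLC2 replicate 2 ended the call (0.60, adjusted p = 0.054, against 9.0e-06 to 0.054 over the alternatives). The opposite-strand gene MMP24OS overlaps PROCR over 14496 bases from gene start to end, introns included. It had 123 and 111 counts in shCON and 104 and 93 in shSPTLC2, the reverse of the order in PROCR. The FPKM ratio of THBD to PROCR was 2.48 and 1.78 in the shCON libraries and 0.749 and 0.777 in the shSPTLC2 libraries. Per kilobase of the gene length used, the more abundant of the 2 transcripts was thus THBD in shCON and PROCR in shSPTLC2. In CPM THBD was above PROCR in both groups, at means of 142.7 and 28.0 in shCON and 81.8 and 44.2 in shSPTLC2.

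**Figure D3:**
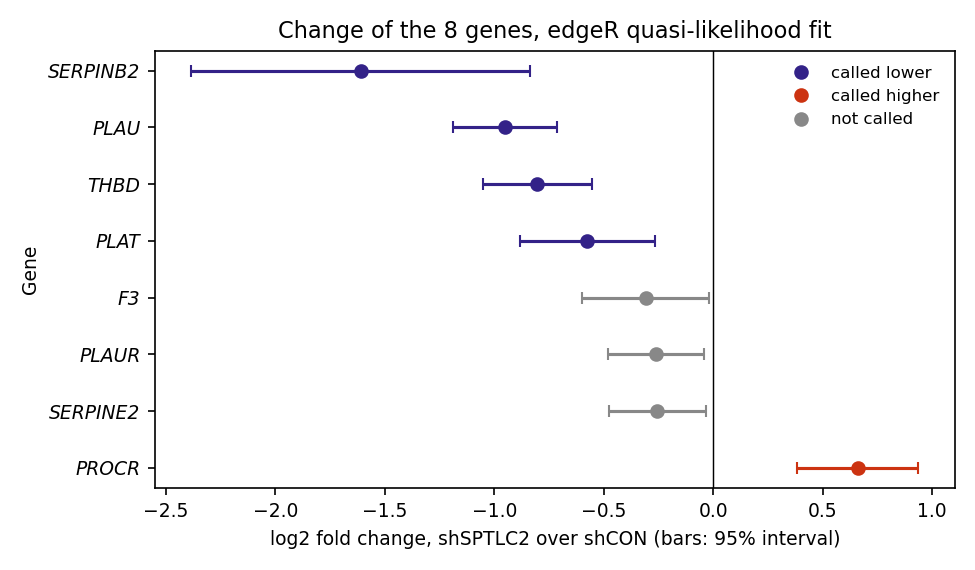
Log2 fold change, shSPTLC2 over shCON, of the 8 genes with 95% intervals (not adjusted over genes) from edgeR's quasi-likelihood fit. Dark blue points were called lower, red higher and grey points were not called at an adjusted p under 0.05. The intervals run from -2.38 (SERPINB2) to 0.94 (PROCR), and those of F3, PLAUR and SERPINE2 end close to 0.

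THBD and PROCR are also known from endothelium and SERPINB2 from monocytes, so markers of those cells were counted. The 5 leukocyte markers summed to 0.544 to 0.912 CPM per library, and 0 of them passed the filter. The 4 platelet markers summed to 0.069 to 0.544 CPM. Of 6 endothelial markers, EMCN was at 0 counts and TEK had 1 to 4 counts. PECAM1 had 31 and 27 counts in shCON and 6 and 12 in shSPTLC2 (log2 fold change -1.71, edgeR adjusted p = 0.018, 0.0065 to 0.212 over the alternatives), and KDR, at 9 to 20 counts, was not called. TIE1 was abundant in both groups, at 525.6 and 560.3 mean CPM in shCON and shSPTLC2, and CDH5 was called higher, from 56.2 to 119.5 mean CPM. The endothelial list summed to 588.8 and 581.7 CPM in shCON and 652.7 and 709.6 in shSPTLC2, and its part in the THBD and PROCR results was not tested.

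On the FPKM scale the order in shCON was PLAU (527.0 ± 14.5; SD, n = 2), PLAUR (60.4 ± 3.87), THBD (34.6 ± 4.44), SERPINE2 (18.7 ± 1.05), PROCR (16.4 ± 1.74), F3 (9.20 ± 0.124), PLAT (4.51 ± 0.688) and SERPINB2 (1.19 ± 0.217). SERPINE2 and PROCR were the neighbours whose means differed by about their spread. In shSPTLC2 PROCR (25.8 ± 1.52) ranked 3, above THBD (19.7 ± 1.66) and SERPINE2 (15.6 ± 0.0964), and the other places did not change. This order depends on the gene lengths used, 1696 bases for PROCR, 4109 for THBD and 8891 for SERPINE2. In CPM, SERPINE2, THBD and PROCR had means of 166.7, 142.7 and 28.0 in shCON. Their CPM means in shSPTLC2 were 139.7, 81.8 and 44.2.

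The genes around these 8 were taken from 9 lists of 54 genes, also chosen with earlier results known, of which 32 were tested. The test called 2 higher and 8 lower and did not call 22, with a median log2 fold change of 0.05. Over all tested genes 10.4% were called higher and 9.00% lower. Leaving out either shSPTLC2 replicate left fewer of the list genes called, and also fewer of all tested genes.

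Among plasminogen and its binding proteins, 0 of 4 tested genes rose, 3 fell and 1 was not called. The plasminogen gene PLG had 1 count over all 4 libraries, so its transcript was at the edge of detection. ANXA2 encodes annexin A2, which with S100A10 forms a surface assembly site for plasminogen and tissue plasminogen activator. ANXA2 had 3589 and 3905 CPM in shCON and 2026 and 2207 in shSPTLC2, a log2 fold change of -0.82 ± 0.12 (SE; edgeR adjusted p = 3.7e-04), called in all 13 alternatives. ANXA2 has processed pseudogenes, so its counts are uncertain to the extent that the counting split reads among copies. PLGRKT, a transmembrane plasminogen receptor, changed by -0.74 ± 0.18 (adjusted p = 0.0091 in edgeR), and was not called without shSPTLC2 replicate 1 (0.167; 1.0e-04 to 0.167 over the alternatives). ENO1, a glycolytic enzyme that also binds plasminogen at cell surfaces, changed by -0.39 ± 0.12 (adjusted p = 0.030 in edgeR), and was not called with library totals (0.061), without shSPTLC2 replicate 1 (0.241) or without replicate 2 (0.229; 2.9e-04 to 0.241 over the alternatives). S100A10 was not called (0.09 ± 0.11, adjusted p = 0.616).

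Of the 4 tested genes in the list of other inhibitors of plasminogen activators and plasmin, 0 rose, 1 fell (SERPINB8, above) and 3 were not called. Whether SERPINB8 inhibits these proteases was not tested. Of the 5 receptors and chaperones that clear or bind the activators, 0 rose, 1 fell and 4 were not called. The one that fell was IGF2R, a receptor that also binds the urokinase receptor (-0.52 ± 0.13, adjusted p = 0.010 in edgeR, not called without shSPTLC2 replicate 1 at 0.257; 2.9e-08 to 0.257 over the alternatives).

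Of the surface serine proteases and Kunitz inhibitors, 3 of 6 were tested, and 1 rose and 1 fell. SPINT2, an inhibitor of surface serine proteases, had 111 and 120 counts in shCON and 36 and 60 in shSPTLC2 (-1.30 ± 0.26, adjusted p = 0.0031 in edgeR), and was not called without shSPTLC2 replicate 1 (0.078; 1.2e-05 to 0.078 over the alternatives). TFPI2, a secreted Kunitz inhibitor of plasmin and other proteases, had 59.5 ± 3.81 FPKM in shCON and 76.5 ± 14.3 in shSPTLC2 (0.37 ± 0.12, adjusted p = 0.045 in edgeR). The TFPI2 call ended with DESeq2 (0.071), with limma-voom (0.066), without shSPTLC2 replicate 1 (0.061) and without replicate 2 (0.556, at a log2 fold change of 0.17; 0.0014 to 0.556 over the alternatives). Of 3 tested protease activated receptors, 0 were called, and the thrombin receptor gene F2R changed by -0.04 ± 0.14 (adjusted p = 0.871 in edgeR).

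Transcripts of soluble clotting factors were scarce. Of 12 genes for clotting factors and fibrinogen, 7 (F7, F9, F11, F13A1, FGA, FGB and FGG) had 0 counts in all libraries, and 2 were tested and not called. F7 encodes the ligand of tissue factor, and its 0 counts allow up to 0.195 to 0.206 CPM per library. F12, the most abundant of that list per kilobase, had 0.723 ± 0.0565 FPKM in shCON and 0.961 ± 0.192 in shSPTLC2. GAS6, a vitamin K dependent ligand grouped with the protein C genes, was not called (0.31 ± 0.11, adjusted p = 0.058 in edgeR).

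Of 4 genes that bear on surface lipid and tissue factor activity, 0 rose, 2 fell and 2 were not called. ANXA5 encodes annexin A5, which covers exposed phosphatidylserine and so shields it from clotting factors. It had 171.5 ± 4.11 FPKM in shCON and 116.4 ± 3.90 in shSPTLC2 (SD, n = 2), a log2 fold change of -0.55 ± 0.11 (adjusted p = 0.0024 in edgeR; not called without shSPTLC2 replicate 1 at 0.093, with 4.3e-07 to 0.093 over the alternatives). XKR8, a phospholipid scramblase subunit, changed by -0.72 ± 0.23 (adjusted p = 0.041 in edgeR). The XKR8 call ended with library totals (0.056), with DESeq2 (0.161), without shCON replicate 2 (0.067), and without shSPTLC2 replicate 1 (0.171) or replicate 2 (0.210), with 0.016 to 0.210 over the alternatives. Of 5 genes of the vitamin K cycle and factor export, 1 rose, LMAN1 (0.38 ± 0.11, adjusted p = 0.024 in edgeR), a cargo receptor for factors V and VIII. Its call ended without shCON replicate 2 (0.066) and without shSPTLC2 replicate 1 (0.139) or replicate 2 (0.236), with 3.6e-04 to 0.236 over the alternatives. Its partner MCFD2, the most abundant of that list per kilobase, changed by -0.01 ± 0.10.

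**Figure D4:**
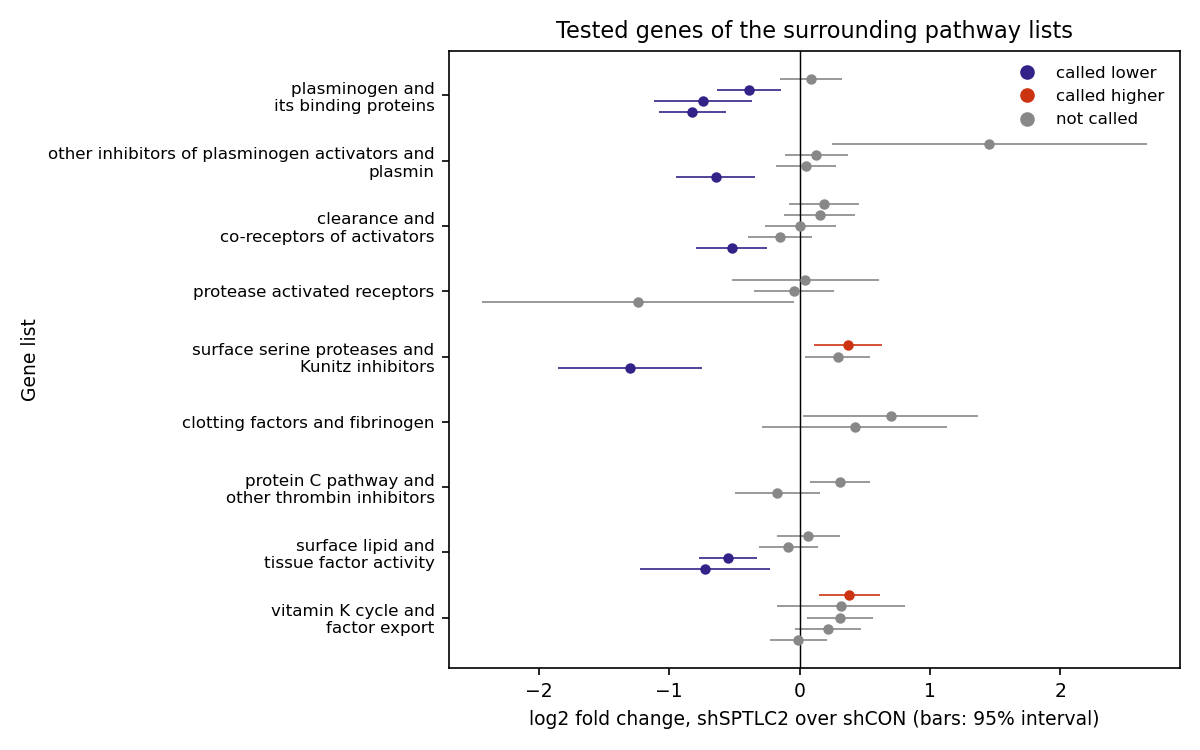
Log2 fold change, shSPTLC2 over shCON, with 95% intervals (not adjusted over genes), for the 32 tested genes of the 9 surrounding lists. Dark blue points were called lower (8), red higher (2) and grey not called (22). The plasminogen binding list at the top holds 3 of the 8 genes called lower.

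**Figure D5:**
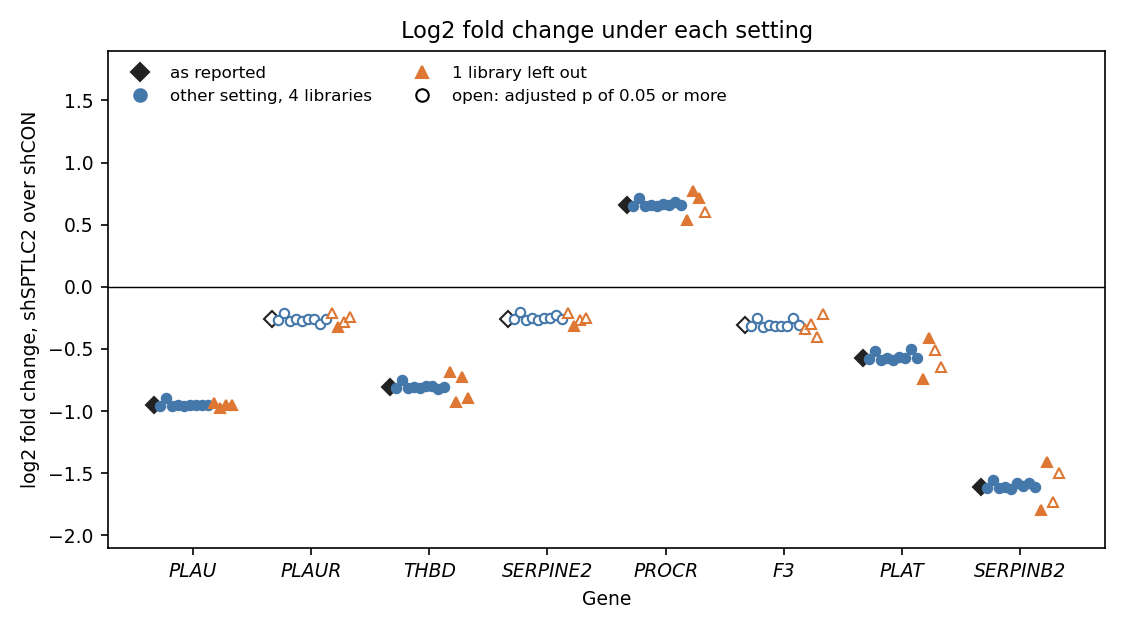
Log2 fold change, shSPTLC2 over shCON, of the 8 genes as reported (diamonds), under 9 other settings with all libraries (blue circles) and with 1 library left out (orange triangles). Open symbols have an adjusted p of 0.05 or more. PLAU runs from -0.98 to -0.90 and is filled throughout, and the 13 alternatives reverse the direction of 0 of the 8 genes.

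By library profile, the coding genes most like SERPINB2 among 12546 compared were KRCC1, GALM and LONRF2, at Euclidean distances of 0.144, 0.146 and 0.191 between mean-centred log2 CPM over the 4 libraries. Their log2 fold changes were -1.46, -1.55 and -1.79, which lie near that of SERPINB2 because the genes were picked for a like profile. GALM, at 0.521 to 1.92 CPM, and LONRF2, at 0.391 to 1.99 CPM, rest on few reads. The profiles rest on 4 libraries and share each library's scaling.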

How the data were processed

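Total counts were 14464800 to 15085000 per library (rounded to 6 digits). The authors deposited raw read counts per gene and FPKM values, which equal count over gene length times a factor per library. Per the submitters' processing notes, HISAT2, SAMtools and StringTie were used with hg38; no source used here gives the counting program or its strand setting. All 58735 genes matched GENCODE 29 in ID, start, end and strand.

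Counts of all 4 libraries were tested in R 4.3.3 with edgeR 4.0.16: filterByExpr (minimum count 10, total 15), TMM scaling, a robust quasi-likelihood fit without covariates and Benjamini-Hochberg adjustment over 15313 genes, called under 0.05. The common biological coefficient of variation was 10.1%. Each SE was derived as the size of the log2 change divided by √F. The scripts were tested on simulated data. Alternatives were DESeq2 1.42.0, limma-voom (limma 3.58.1), other scaling and filters, a replicate block, a GC-content correction, leaving out each library and, added after seeing the data, leaving out mitochondrial genes.

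Members and lists were chosen with earlier results of these data known. Named beside the 8 genes were every called list gene, each list's most abundant gene by FPKM (1 of which is not reported here), and SERPINB2's 3 nearest profiles. PLG, S100A10, the SERPINB cluster, neighbouring genes, genes at 0 counts and individual cell markers were named after their values were seen. Floors are 3 counts.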

Additional observations from a re-analysis of the deposited data

How the results depend on the processing

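Over 13 alternatives, 97 of 104 recomputed values for the 8 genes kept their direction and side of the threshold, 5 lost the call, 2 gained it and 0 reversed. Each of those 7 changes came from leaving out 1 library, after which the lone library of a group is assumed to vary like the other group. With each library left out in turn, log2 fold changes ran from -0.33 to -0.21 for PLAUR, -0.74 to -0.41 for PLAT, -0.31 to -0.21 for SERPINE2, -1.80 to -1.41 for SERPINB2 and 0.54 to 0.77 for PROCR. In the same fits the 8 genes gave 2 to 6 calls lower and 0 to 1 higher, the surrounding lists 1 to 8 lower and 0 to 6 higher, and all genes 227 to 2050 lower and 413 to 1977 higher. DESeq2 called 972 genes higher and 1006 lower, and the cause was not tested. The surrounding lists had 4 genes called higher with library totals and 1 each with DESeq2 and limma-voom. The share of calls that were higher was 53.6%, and it was 65.1% with library totals, 49.1% with DESeq2, 47.7% with the GC-content correction and 49.1% without shCON replicate 1, so under the last 3 of these lower calls were the majority.

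Replicate numbers appear in both groups, but the labels do not say that they mark a shared culture or day, and deviations of libraries with the same number had a correlation of -0.013. With the replicate block, 1776 genes were called higher and 1531 lower, and the 8 genes kept 4 calls lower and 1 higher. Depth limits SERPINB2 most, at 15 to 54 counts per library.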
